A study of Arabidopsis thaliana with 12 samples.

Results

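Among the nuclear genes that could be named on these Arabidopsis thaliana arrays, 67 gave clearly more signal in the stn7 stn8 double mutant than in wild type. They were chosen from the mutant against wild-type contrast itself. A row had to name exactly 1 gene, differ by at least 0.5 in mean log2 intensity, and have every mutant array above every wild-type array. This held for 72 of 645 measured rows with 1 gene name, or 11.2%, beside 10.8% of all 3229 measured rows. PSBY, CHLM, AT4G09620, AT3G13150 and AT1G29070 were set aside, which left 67 genes. The size and separation of these differences are therefore descriptions with no test, and the share near 11.2% says nothing particular about them. In the opposite direction the mirrored rule found 50 rows with 1 gene name, or 7.75%. Over all measured rows it found 354 of 3229, or 11%, beside the 10.8% that were higher.

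Both groups are ecotype Columbia 0. One is wild type, with 6 arrays, and the other is titled stn7stn8, with 6 deposited arrays of which replicates 4 and 5 held the same values and were counted as 1 sample. Thus 6 wild-type and 5 distinct mutant arrays were compared. Genotypes come from the titles alone, since the source field names wild type for all 12 samples, and neither targeted kinase gene has a row with 1 gene name. No label gives the organ, age, light, mutant alleles or origin of the replicates, so the spread between arrays may be technical. The wild-type arrays came in pairs: deviations from the group mean correlated at r = 0.359 for replicates 1 and 2, 0.316 for 3 and 4, and 0.51 for 5 and 6. The 12 other wild-type pairs lay between -0.575 and 0.0715. Mutant replicates 1 and 2, the only consecutive mutant pair examined, were at -0.37. The correlation of replicate 6 with the shared values of 4 and 5 was not examined. Replicates 4 and 6 had 145 and 152 zero rows, and replicates 1, 2 and 3 had 188, 174 and 174. No label says whether the wild-type pairs, or any mutant arrays, are repeats of 1 sample. Thus n = 6 and n = 5 below count arrays and may overstate the number of independent samples. With each wild-type pair averaged, leaving 3 values, the limma calls over all rows went from 766 higher and 632 lower to 542 and 468. All 67 genes then met the rule, but this could not have come out otherwise. Averaging kept their wild-type means and could only lower the highest wild-type value. The deposited medians were lower in wild type (log2 from -1.648 to -1.357) than in the mutant (-1.003 to -0.944), while column totals lay between 3586 and 3682.

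The kinase STN7 phosphorylates the light-harvesting antenna of photosystem II, and STN8 phosphorylates the core of that photosystem. STN7 is known for state transitions, in which antenna moves between the photosystems, and both kinases have been studied in signalling from the plastid to nuclear genes. Most proteins of the chloroplast are encoded in the nucleus, among them factors that process plastid RNA, subunits of the electron transport chain, and enzymes that make pigments.

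Levels below are quantile-normalized log2 intensities, on which 0 stands for 1 intensity unit. Rows come from different probes, so a bright or dim row describes the signal of that row and not how strongly its gene is expressed. The differences of the 67 genes had a median of 0.70, a range from 0.50 to 1.98, and middle values between 0.61 and 0.80. As folds the median was 1.63, 7 genes reached 2-fold or more, and 11 stayed under 1.5-fold. The median difference was 0.058 over all measured rows and 0.11 over those with 1 gene name. The gap between the lowest mutant array and the highest wild-type array ran from 0.024 to 0.76, with a median of 0.24. Among the 67, the median SD was 0.15 between wild-type arrays and 0.19 between mutant arrays, beside 0.19 and 0.22 for all measured rows with 1 gene name.

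**Figure D1:**
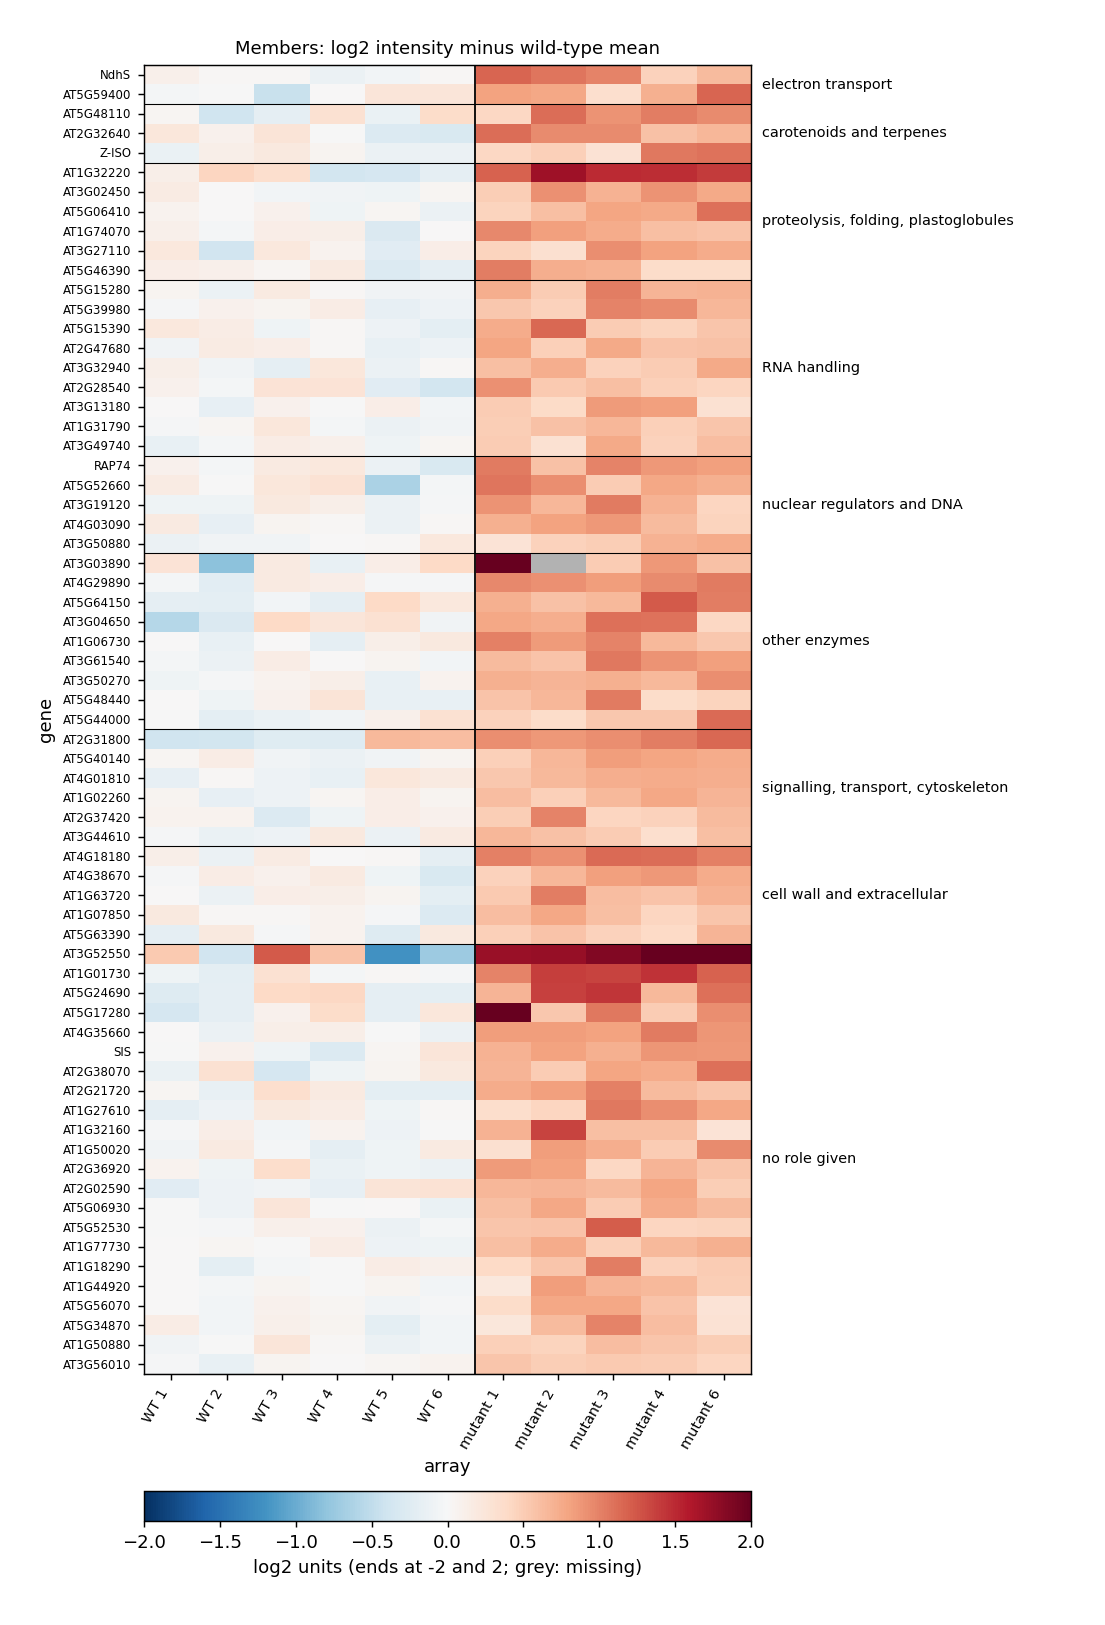
Each line is 1 of the 67 genes, each column 1 array, and the colour is the normalized log2 intensity minus the wild-type mean of that gene, from -2 (blue) to 2 (red), with the 1 missing value in grey. All mutant columns are red because the rule required it; the picture shows how even the genes are, with AT3G52550, AT3G03890, AT1G32220 and AT5G17280 holding the darkest cells.

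The gene table matched all 67 genes but gives functions in a name for few of them, and 63 carry only a locus name. The roles below are background knowledge of Arabidopsis genes, and were given for 45 of the 67. The other 22 are listed without one. Roles were given only to the chosen genes, so no share over all measured rows stands beside the counts that follow. They may only mirror which genes the arrays hold. There were 9 genes of RNA handling, 9 varied enzymes, and 6 genes of proteolysis, folding and plastoglobules. A further 6 belonged to signalling, transport and the cytoskeleton, 5 to nuclear regulation and DNA, and 5 to the cell wall. Carotenoid and terpene synthesis had 3 and electron transport 2. No single function covered more than a small part of the 67.

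In photosynthetic electron transport the genes were NdhS and AT5G59400. NdhS (AT4G23890) encodes the ferredoxin-binding subunit of the chloroplast NDH complex, which returns electrons from photosystem I to the plastoquinone pool. It was among the brightest rows, with wild-type arrays from 3.93 through a median of 4.07 to 4.15. The mutant arrays stood at 5.21, 5.12, 5.05, 4.50 and 4.68. Because of the rule no mutant array overlapped wild type, and replicates 4 and 6 were the lowest of the 5. The means were 4.05 ± 0.078 (SD, n = 6) and 4.91 ± 0.30 (n = 5), a 1.82-fold difference. That direction depended on the scaling: NdhS was higher by 0.41 on the deposited values and by 0.83 after cyclic loess, but was at -0.13 with arrays centred on their medians. AT5G59400 is a relative of PGRL1, a thylakoid protein of cyclic electron flow. Its wild-type arrays ran from -3.04 to -2.35 with a median of -2.59, and the mutant arrays stood at -1.78, -1.83, -2.26, -1.88 and -1.43. The lowest mutant array, replicate 3, lay only 0.09 above the highest wild-type array. The means were -2.59 ± 0.25 and -1.84 ± 0.30, and the gene met the rule under all 4 scalings, as 40 of the 67 did.

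All 3 genes of carotenoid and terpene synthesis met the rule under all 4 scalings. Z-ISO (AT1G10830), the isomerase of zeta-carotene on the way to lycopene, had wild-type arrays from -2.27 through -2.16 to -1.93. Its mutant arrays were -1.71, -1.65, -1.84, -1.07 and -1.05, so replicates 4 and 6 were clearly above the other 3. The difference was 0.66, from -2.13 ± 0.14 (SD, n = 6) to -1.47 ± 0.38 (n = 5). AT2G32640 encodes a protein related to lycopene cyclases. It gave -2.48 to -1.92 in wild type, with a median of -2.12, and -1.06, -1.23, -1.22, -1.59 and -1.50 in the mutant. Here replicates 4 and 6 were the lowest mutant arrays, the reverse of Z-ISO, and the difference was 0.85. AT5G48110, a terpene synthase, was a dim row with a difference of 0.88, and its mutant replicate 1 at -2.68 lay just above the highest wild-type array at -2.73.

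Proteolysis, protein folding and plastoglobules were represented by 6 genes. AT1G32220 encodes an NAD(P)-binding protein of plastoglobules, the lipid droplets attached to thylakoids. Wild-type arrays ran from -2.94 to -2.15 with a median of -2.60, and mutant arrays were -1.39, -0.87, -1.08, -1.09 and -1.17. With 0.76 it had the widest gap between the groups of all 67 genes, and a 2.74-fold difference of means (-2.57 ± 0.34, n = 6, and -1.12 ± 0.19, n = 5). AT3G27110, a metallopeptidase of plastoglobules, was higher by 0.65. AT3G02450, an FtsH-like protein of the plastid, had wild-type arrays from -1.33 through -1.27 to -1.08 and mutant arrays at -0.75, -0.33, -0.54, -0.35 and -0.49. Its groups were tight and 0.33 apart, with means of -1.24 ± 0.091 and -0.49 ± 0.17. AT5G46390, a C-terminal processing peptidase, was higher by 0.64, with mutant replicate 1 at 0.46 and replicates 4 and 6 at -0.18 and -0.20. The co-chaperone AT5G06410, which serves iron-sulfur cluster assembly, and the cyclophilin AT1G74070 were both higher by 0.74.

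RNA handling held 9 genes, of which 4 encode pentatricopeptide repeat (PPR) proteins, which bind and process organelle transcripts. AT5G39980 had wild-type arrays from 0.41 through 0.59 to 0.72. Its mutant arrays were 1.12, 1.04, 1.57, 1.52 and 1.23, all above wild type as the rule required, and the difference was 0.72. AT5G15280 gave -0.44 to -0.15 in wild type, with a median of -0.35, and 0.41, 0.18, 0.70, 0.36 and 0.37 in the mutant, a difference of 0.73. AT1G31790 and AT3G49740 were higher by 0.55 and 0.53. In each of these 4 PPR genes mutant replicate 3 was the highest array. None of the 4 met the rule with arrays centred on their medians, where their differences were 0.42 (AT5G15280), 0.26 (AT5G39980), 0.29 (AT1G31790) and 0.23 (AT3G49740).

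A pair of RNA methyltransferases joined them. AT5G15390, of the SpoU family that methylates ribosomal or transfer RNA, had wild-type arrays from -1.34 through -1.18 to -0.95. In the mutant the values were -0.41, -0.01, -0.65, -0.70 and -0.60, with replicates 1 and 2 above the rest, and the difference was 0.68. AT3G13180, of the NOL1/NOP2/Sun family, was higher by 0.57, from -2.51 ± 0.11 (SD, n = 6) to -1.94 ± 0.25 (n = 5). Both met the rule under all 4 scalings, as 40 of the 67 genes did. The other RNA genes were AT2G47680, a zinc finger helicase, at 0.63, AT3G32940, a KH domain protein, at 0.61, and AT2G28540, an RNA recognition motif protein, at 0.59.

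**Figure D2:**
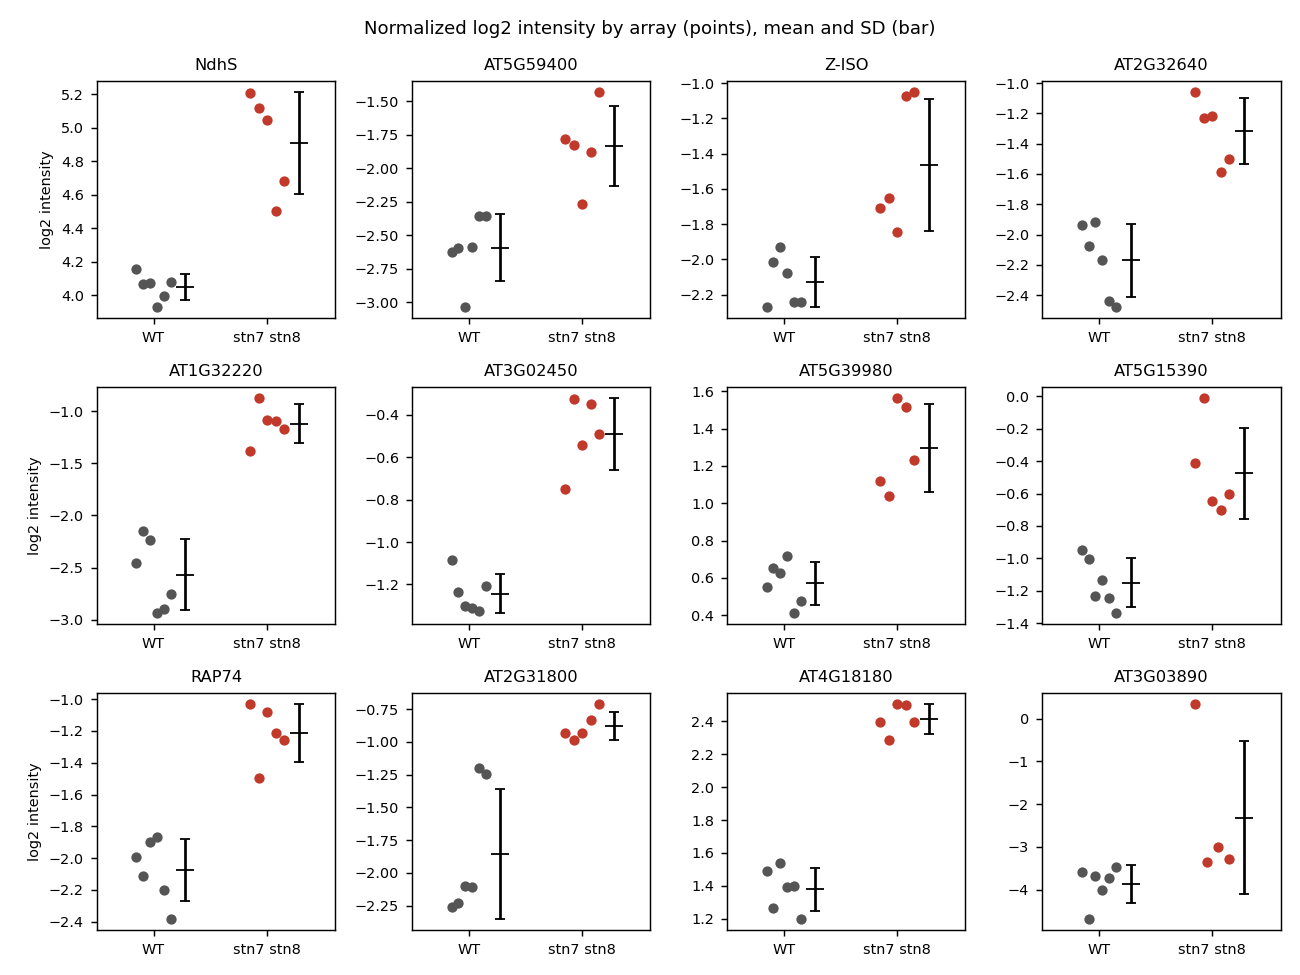
Normalized log2 intensity of 12 of the genes, with 1 point per array (wild type grey, n = 6; mutant red, n = 5, or 4 for AT3G03890) and the mean with its SD as a bar. The axes are log2 and differ between panels; NdhS, Z-ISO and AT2G32640 show mutant replicates 4 and 6 apart from the others, AT2G31800 shows wild-type replicates 5 and 6 apart, and AT3G03890 owes its mean to mutant replicate 1.

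Nuclear regulation and DNA held 5 genes. RAP74 (AT4G12610), a subunit of the general transcription factor TFIIF, had wild-type arrays from -2.38 through -2.05 to -1.87 and mutant arrays at -1.03, -1.50, -1.08, -1.21 and -1.26. The lowest mutant array, replicate 2, was 0.37 above wild type, and the difference was 0.86. AT5G52660, a MYB-like factor of the REVEILLE family related to clock proteins, was higher by 0.80 at a low level, with wild-type replicate 5 far below the other wild-type arrays. AT4G03090, the nodulin homeobox protein NDX, was higher by 0.69, and AT3G19120, of a transposase-derived family, by 0.74. AT3G50880, a DNA glycosylase, was higher by 0.53 and met the rule under only 2 of 4 scalings.

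The 9 other enzymes were mixed. AT3G03890, with an FMN-binding fold, had the second largest difference, 1.54, but it rested on 1 array. Its wild-type arrays ran from -4.68 to -3.47 with a median of -3.71. Mutant replicate 1 was at 0.35, replicates 3, 4 and 6 were at -3.36, -2.99 and -3.28, and replicate 2 had no value. Without replicate 1 the difference was 0.65, and with zeros set to the lowest value above 0 it was -0.48. AT4G29890, related to choline monooxygenase, was bright and even: 0.96 to 1.36 in wild type and 2.14, 2.10, 2.01, 2.11 and 2.22 in the mutant. The groups were 0.65 apart and the difference was 0.94, but 0.34 with arrays centred on their medians. AT5G64150, a predicted methyltransferase, was higher by 0.84, with wild-type replicates 1 to 4 between -1.57 and -1.43, replicates 5 and 6 at -0.98 and -1.16, and mutant arrays from -0.79 to -0.14. The others were 2 flavin-dependent oxidoreductases, AT3G04650 at 0.82 and AT5G48440 at 0.61, the pfkB-type carbohydrate kinase AT1G06730 at 0.81, and the alpha/beta hydrolase AT3G61540 at 0.79. The acyltransferase AT3G50270 was at 0.73 and the glutathione S-transferase family gene AT5G44000 at 0.61.

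In signalling, transport and the cytoskeleton the largest difference was that of AT2G31800, a kinase of the integrin-linked type. Wild-type replicates 1 to 4 lay between -2.26 and -2.10, but replicates 5 and 6 were at -1.20 and -1.24. The mutant arrays were -0.93, -0.99, -0.93, -0.84 and -0.71, so the mean difference of 0.98 spans a wild-type group that splits into 4 and 2 arrays. AT3G44610, an AGC-type kinase, was higher by 0.54. The U-box protein AT5G40140, an ubiquitin ligase, was higher by 0.70, the SEC23-like coat protein AT4G01810 by 0.68, the ion transporter AT1G02260 by 0.64 and the kinesin AT2G37420 by 0.60.

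Among genes of the cell wall and extracellular space, AT4G18180 encodes a pectin lyase-like protein. It was bright, from 1.20 to 1.54 in wild type, and stood at 2.39, 2.29, 2.51, 2.50 and 2.39 in the mutant. The groups were 0.75 apart with small spreads (1.38 ± 0.13, n = 6, and 2.42 ± 0.091, n = 5), a 2.05-fold difference, which was 0.38 on the log2 scale with arrays centred on their medians. The thaumatin-like AT4G38670 was higher by 0.71, and the hydroxyproline-rich protein AT1G63720 by 0.68. The glycosyl transfer genes AT1G07850 and AT5G63390, the latter an O-fucosyltransferase family protein, were higher by 0.60 and 0.52.

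The 22 genes given no role included several of the largest differences. AT3G52550 led all 67 genes at 1.98, or 3.95-fold, and was among the dimmest, with wild-type arrays from -4.87 through -3.59 to -2.43 and mutant arrays at -1.92, -1.92, -1.81, -1.31 and -1.43. Its wild-type SD of 0.92 was the largest of the 67 genes. AT1G01730 was brighter and tighter: -1.17 to -0.66 in wild type, with a median of -0.998, and 0.03, 0.42, 0.38, 0.48 and 0.21 in the mutant. Its gap was 0.69 and its difference 1.27, and it met the rule under all 4 scalings, as 40 of the 67 genes did. AT5G24690 was higher by 1.05, with wild-type arrays from -2.26 through -2.19 to -1.60 and mutant arrays at -1.33, -0.64, -0.58, -1.37 and -0.91. Mutant replicates 1 and 4 were the nearest to wild type. AT5G17280 was higher by 1.02, with mutant replicate 1 at 0.36 and the other mutant arrays from -1.20 to -0.66. AT4G35660 was bright, with 2.56 to 2.80 in wild type and 3.52, 3.52, 3.49, 3.72 and 3.56 in the mutant, a difference of 0.88 that was 0.12 with arrays centred on their medians. SIS (AT5G02020), named for its induction by salt, was higher by 0.79. The other 16 lay between 0.50 and 0.76.

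The relatives of these genes on the arrays were examined in 11 family lists. The lists were written from background knowledge after earlier results were known, may miss relatives, and include the genes chosen above, so their counts are descriptions. The limma fit over all 3229 rows (Benjamini-Hochberg adjusted p under 0.05) called 23.7% of all rows higher and 19.6% lower, and of the rows with 1 gene name 27% and 16.1%. Of 20 measured PPR genes, 8 were called higher and 12 did not pass, and 0 were called lower. At an unadjusted p under 0.05 (limma) there were 9 higher and 0 lower, and by the separation rule 5 higher and 0 lower. The 8 include the 4 chosen genes and AT3G13150, which met the rule and was set aside, so the count partly restates the choice. The others called higher were CRR21, AT3G26630 and AT2G17670. The median difference over the 20 was 0.22, against 0.11 for all rows with 1 gene name. With arrays centred on their medians limma called 6 PPR genes higher and 5 lower, so the one-sided count depended on the scaling. AT3G51320 was left out by the rule. Its difference of 1.62 was larger than that of all but 1 of the 67, but the groups overlapped and it did not pass (adjusted p = 0.0697, limma). Its row was among the dimmest, with wild-type replicate 1 at -8.21 and the other wild-type arrays from -5.67 to -3.39. With the median intensity added before log2 its difference was 0.12.

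Most other families had calls in both directions, but this changed with the scaling. Without any scaling none of the lists for NDH, peptidases, fibrillins, mTERF proteins, transcription regulators or the cell wall had a lower call, a count of 0 by limma. Of 8 RNA methyltransferases, 2 were called higher and 2 lower; the lower ones were AT4G38020 at -1.17 and AT5G26880, which the gene table names AGL26, at -0.73. Of 6 genes for the NDH complex and cyclic electron flow, 3 were higher and 2 lower. CRR21, a PPR protein that edits an NDH transcript, was higher by 0.41, and CRR41, an NDH assembly factor, was at -0.46 (adjusted p = 0.0198 and 0.00445, limma). PIFI, an NDH accessory protein, was at -0.38 (adjusted p = 0.0182), and NdhN at 0.24 did not pass. With wild-type pairs averaged CRR41 passed (adjusted p = 0.0301, limma), and CRR21 and PIFI did not (0.0898 and 0.0905). With arrays centred on their medians 1 of these 6 was called higher and 1 lower. Among 8 peptidases and their partners, the 3 chosen genes were higher while TPP2, tripeptidyl peptidase II, and AT1G68660, a ClpS-like adaptor, were lower at -0.61 and -0.46. With wild-type pairs averaged TPP2 passed and AT1G68660 did not (adjusted p = 0.0199 and 0.0514, limma).

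Carotenoid, terpene and prenyl lipid enzymes had 4 of 5 called higher and 0 lower (limma; 4 and 1 at an unadjusted p under 0.05, 3 and 0 by the separation rule). The additional one was the terpene synthase AT3G29410 at 0.49, just under the threshold of 0.5, which did not pass with wild-type pairs averaged (adjusted p = 0.0524, limma). The exception was the geranylgeranyl reductase AT1G74470 at -0.27, which did not pass here and was called lower on the deposited values and with arrays centred on their medians. Of 9 fibrillins and plastoglobule proteins, 2 were called higher, the chosen AT1G32220 and AT3G27110, and 1 lower, the fibrillin AT2G35490 at -0.65. Chaperones and cyclophilins had 3 of 7 higher and 0 lower (limma; 3 and 0 unadjusted, 2 and 0 by the separation rule). Protein kinases had 5 of 10 higher and 1 lower, transcription regulators 5 of 15 higher and 1 lower, and genes of the cell wall and glycosyl transfer 6 of 12 higher and 2 lower. Of 7 mTERF proteins, which act on organelle transcripts, 1 was higher and 2 were lower, and the higher one, AT4G09620, was set aside by the rule. With wild-type pairs averaged limma called 18.6% of the rows with 1 gene name higher and 11.2% lower. The higher and lower calls were then 7 and 0 of 20 PPR genes, 3 and 0 of 5 carotenoid, terpene and prenyl lipid enzymes, and 2 and 0 of 7 chaperones and cyclophilins. They were 2 and 1 of 10 protein kinases, 4 and 1 of 15 transcription regulators, and 3 and 2 of 12 genes of the cell wall.

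**Figure D3:**
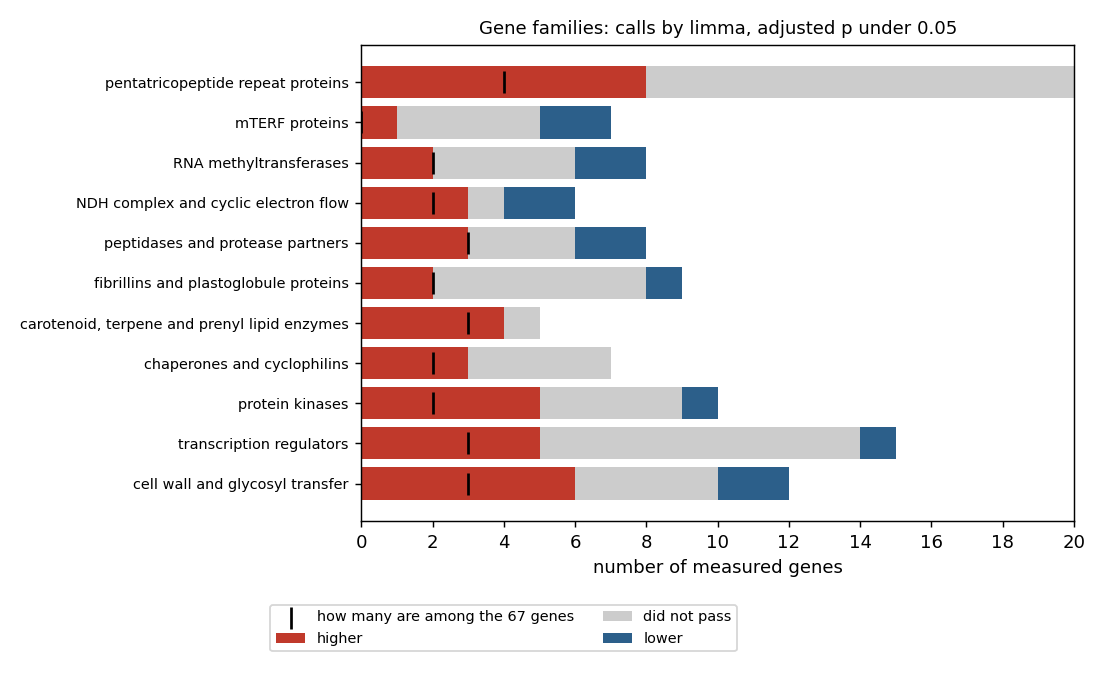
For each family list, the bar gives the number of measured genes called higher (red), not passing (grey) or lower (blue) by limma at an adjusted p under 0.05, and the black mark the number that are among the 67 genes. The PPR list has 8 of 20 higher and 0 lower, while RNA methyltransferases have 2 higher and 2 lower.

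Which genes kept to the rule with arrays centred on their medians went with the brightness of their rows. All measured rows were ranked by wild-type signal and cut into 4 equal classes, which held 22, 15, 20 and 10 of the 67 genes from dimmest to brightest. The same classes held 187, 167, 158 and 133 measured rows with 1 gene name. Of those, 12.3%, 8.98%, 13.3% and 9.77% met the rule, counted before any gene was set aside. On the deposited values 66 of the 67 met the rule, but there 1199 of 3229 rows did, and the median difference of all rows was 0.50. After cyclic loess 58 met it, beside 9.54% of all rows. With arrays centred on their medians 45 did, beside 7.09% of all rows. These were all 22 and all 15 of the dimmer classes, 8 of 20 in the next, and 0 of 10 in the brightest. In all, 40 of 67 genes met the rule under all 4 scalings, and NdhS, with median centring, was the only one below 0 under any of the 4. The deposited and median-centred scales are not separate checks on the size of a difference. For rows with complete values, centring moved every mean difference by the same amount. When the median intensity was added to each value ahead of the logarithm, 12 genes met the rule, beside 2.91% of all rows, and all 67 stayed above 0.

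**Figure D4:**
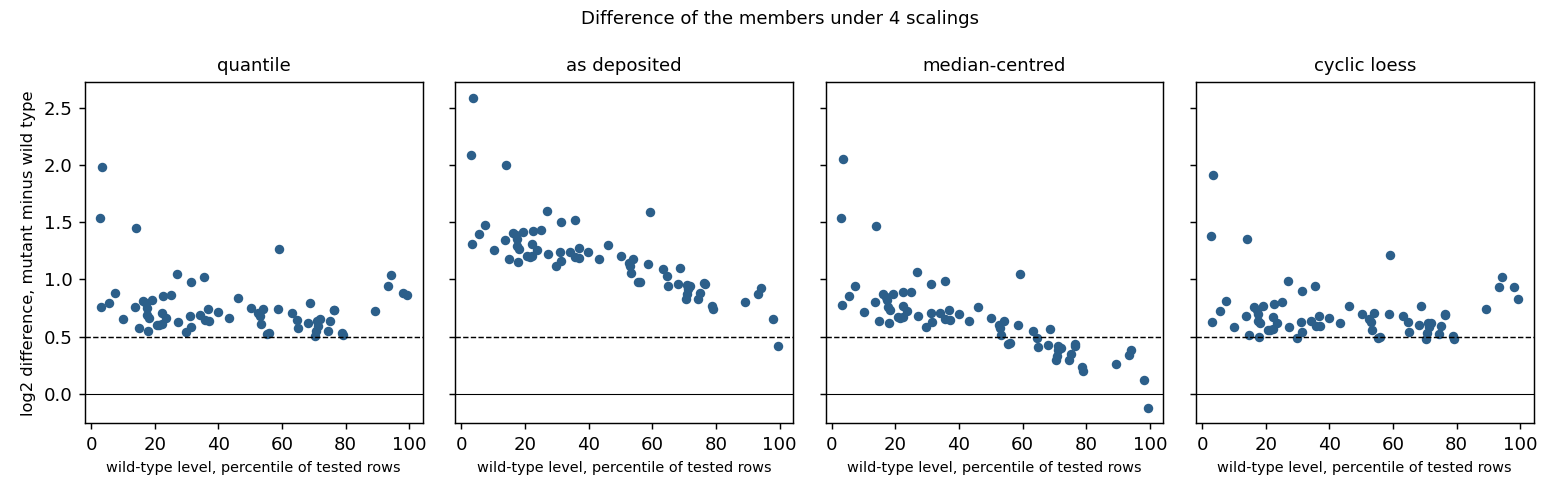
The log2 difference of each of the 67 genes (y axis) against the percentile of its wild-type level among all measured rows (x axis), under quantile normalization, as deposited, median-centred and cyclic loess values; the dashed line is the threshold of 0.5. The differences fall with brightness both as deposited and with median centring, since centring moves the mean difference of every complete row by the same amount. The brightest gene, NdhS, lies at 0.41 as deposited and at -0.13 with median centring.

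The rule also bears on the values within each group, since separated groups favour a small spread, so what follows is a description. The median Pearson correlation between pairs of them was 0.12 over the 6 wild-type arrays and 0.031 over the 5 mutant arrays. For all measured rows with 1 gene name and complete values these medians were 0.023 and 0.0045. All pairs share the same arrays. Wild-type replicate 3 was the highest wild-type array for 24 of the 67 genes and mutant replicate 3 the highest mutant array for 20. Wild-type replicates 2 and 5 were the lowest for 16 and 18. Without wild-type replicates 5 and 6, 62 of the 67 genes met the rule, and without mutant replicates 1 and 2, 64 did.

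Rows that name several genes offered a further look at 10 of the 67, each in 1 other row that names 3 genes. Of these rows 8 lay above 0 and 2 below, and 2 met the rule. The row shared by AT1G32160 was higher by 0.82, beside 0.71 for its own row, and that shared by AT5G56070 by 0.66, beside 0.55. For AT3G03890 the other row gave 0.10 instead of 1.54. For AT4G38670 it was at -1.41, opposite to its own row at 0.71, and for AT5G46390 at -0.17, opposite to 0.64. No label says which of the 3 genes such a row detects.

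The threshold passed through a continuous range of values. The genes just inside it were AT3G49740 at 0.53, AT5G63390 and AT1G50880 at 0.52, and AT3G56010 at 0.50. Just outside, without overlap, were AT3G16760 and AT3G29410 at 0.49, AT5G63290 at 0.49 and AT3G07790 at 0.48. In all, 37 rows with 1 gene name were separated but under the threshold, and 41 passed the threshold but overlapped. By chromosome, the 67 genes made up 10.2%, 7.44%, 11.4%, 6.90% and 15.7% of the measured rows with 1 gene name on chromosomes 1 to 5.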

How the data were processed

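The deposited table holds 1 linear intensity per row and array for 3439 rows and 12 arrays; how the authors scaled these intensities is not stated in the labels. Zeros (145 to 192 rows per array) were treated as missing, values were taken to log2, and arrays were quantile normalized. Mutant replicates 4 and 5, which differed by at most 4e-10, were counted once. A row needed 4 values in each group, which left 3229 rows, while 210 were not tested. Precision is limited by the number of arrays. The members and lists were chosen with earlier results of these data known.

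Whole-table calls used limma 3.58.1 (lmFit, eBayes, two-sided) in R 4.3.3, with Benjamini-Hochberg adjustment over all tested rows; the scripts were tested on simulated data. Names came from the platform annotation, updated through the TAIR10.1 gene table, which matched 643 of 645 tested rows with 1 gene name. The planned keyword classes of function matched only 26 of these rows and 2 of the 67 genes, because the gene table holds few functional names, so family lists written later took their place. Promoter motifs were planned and are not analysed here. The text names, by rule, the 15 largest differences, up to 5 genes of each family with 2 or more members, and the 4 genes nearest the threshold on each side; all others were named after their values were seen, to complete each role. No label says that a replicate number marks a shared origin. Deviations of same-numbered arrays correlated at r = 0.179, 0.177, 0.203 and 0.118 for numbers 1, 2, 3 and 6 and at 0.00669 for number 4; since pairing was to be taken only if every pair exceeded 0.1, the main fit has no block.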

Additional observations from a re-analysis of the deposited data

Results flagged for a closer look

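In 70 groups of values of the 35 genes named by rule, 2 held a single array set well apart. About 1 in 20 groups does so by chance. For AT3G03890, mutant replicate 1 was at 0.348 on the log2 scale and the other 3 measured mutant arrays lay between -3.36 and -2.99. For AT5G52660, the value of wild-type replicate 5 was -3.95, while its group otherwise spanned -3.34 to -3.02; without it the difference was 0.67 instead of 0.80. Over all 67 genes, 6 of 134 groups stood out in this way. The other 4 were mutant replicate 6 for AT3G50270 (0.60, the others 0.31 to 0.38) and AT5G44000 (-0.0077, the others -0.78 to -0.60), and mutant replicate 3 for AT5G52530 (-0.49, the others -1.27 to -1.14) and AT1G18290 (-0.84, the others -1.46 to -1.30). Without those arrays AT5G44000 and AT1G18290 were at 0.47 and 0.48, under the threshold of 0.5.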

How the results depend on the processing

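Rows meeting the rule numbered 349 in all and 72 with 1 gene name, and limma called 766 rows higher and 632 lower. On the deposited values these became 1199 and 274, and 1814 and 281. With arrays centred on their medians they became 229 and 54, and 631 and 860. With the median intensity added before log2, 100 rows, 17 with 1 gene name and 12 of the 67 genes met the rule. A threshold of 1 left 46 rows, 11 with 1 gene name and 7 of the 67; without the condition on overlap there were 537 and 113. Leaving out single arrays gave 342 to 393 rows, 72 to 85 with 1 gene name, and 62 to 67 of the 67 genes. Limma then called 686 to 756 rows higher and 590 to 631 lower. Removing an array can hardly make separated groups overlap, so the count of the 67 bears on the mean difference and not on the separation. Of 730 values of 35 genes under alternatives, 660 moved by less than 1 SD between arrays, 68 moved further, and 2 reversed. All 68 came from the deposited values, median centring, or the median intensity added before log2. On the deposited values and with the median intensity added, most of the 35 genes moved further. Averaging wild-type pairs could not change these differences, so its values say nothing about stability. The 2 reversals were NdhS to -0.13 with median centring, and AT3G03890 to -0.48 with zeros set to the lowest value above 0. With consecutive wild-type arrays averaged, 403 rows and 86 with 1 gene name met the rule, and limma called 542 higher and 468 lower. With the replicate number as a block, limma called 796 rows higher and 629 lower, and the block moved no count by over 1.5 times; 4 of 5 mutant arrays correlated best with the wild-type array of their own number, a hint of pairing from the data and not from the labels. Sets of arrays left out together, and family counts with wild-type arrays averaged, were chosen after seeing the data. The table has no detection flags, so dim genes such as AT3G52550 and AT3G03890 are the least certain. The causes of these shifts were not tested.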
